A study of Mus musculus with 8 samples.

Results

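Peaks of N4-acetylcytidine (ac4C), an acetylated form of cytidine in RNA, were examined in 7 genes that mark macrophages: the growth factor receptor Csf1r, the integrin chains Itgam and Itgb2, the surface receptors Adgre1, Mrc1 and Cd14, and Mpeg1. The cells were bone marrow-derived monocytes of wild-type (WT) mice and of mice in which Nat10 was conditionally knocked out (CKO). Nat10 is the RNA acetyltransferase that makes ac4C. Cells of both genotypes had received RANKL, the osteoclast-inducing cytokine, for 3 days. The sources used here do not give the promoter that drives the recombinase, the age or number of the mice, or whether cells were pooled. Each genotype had 2 ac4C immunoprecipitates (IP), each with its own input, and the authors reduced these 8 samples to 4 peak lists. The lists are called WT 1, WT 2, CKO 1 and CKO 2 below. A peak was assigned to a gene when it lay on the gene's strand and overlapped by 1 base or more a span set for that gene on the mm39 assembly. This gave 122 of the 105252 peaks in the 4 lists (0.116%). Peaks that overlapped between lists were merged into regions, which gave 77 regions in the 7 genes out of 75389 in all.

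The 7 genes encode proteins by which macrophages are commonly identified. Csf1r is the receptor for macrophage colony-stimulating factor, on which monocytes, macrophages and osteoclast precursors depend for survival and growth. Itgam (CD11b) and Itgb2 (CD18) pair to form the integrin known as Mac-1 or complement receptor 3, and Itgb2 also pairs with other leukocyte integrin alpha chains. Adgre1 is the F4/80 antigen, an adhesion G protein-coupled receptor. Mrc1 (CD206) is the mannose receptor, an endocytic lectin, and Cd14 is a lipid-anchored co-receptor for bacterial lipopolysaccharide. Mpeg1 encodes perforin-2, a pore-forming protein of phagocytes. When monocytes become osteoclasts under macrophage colony-stimulating factor and RANKL, macrophage surface markers are known to recede while resorption genes are switched on.

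Each peak was called from 1 IP library and its input. The lists give positions and the authors' score of each peak and carry no read counts, so depth is unknown, and no interval can be given for a single peak. The lists held 24249 to 28087 peaks. List WT 2 stood apart from the others, because 6.51% of its peaks were exactly 200 bases wide, against 24.0% to 24.4% in the other 3 lists, and because its median score in the authors' deposited table was 29.5, against 71.3 to 116.5. Counts and rank comparisons between the genotypes are therefore also given without it; the shares over the whole series rest on all 4 lists. Scores were used only as percentiles within a list, 100 being the strongest peak of that list and 50 its middle. Nothing in the labels says that the replicates came from separate mice or cultures, so p-values measure the spread between lists, which may be technical, and with 2 lists against 2 the exact two-sided permutation test cannot go below p = 0.33. Where a list shows no peak, ac4C may still have been present below the threshold of the caller, and a lower level of the mRNA, fewer cells that express it and less ac4C per molecule cannot be told apart.

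All 7 genes carried peaks in all 4 lists. For scale, peaks of the whole series were chained into loci where they lay within 5000 bases of each other on a strand, and of the 5793 loci with at least 6 peaks 70.9% had a peak in every list. These loci are not gene models. The peaks of a single one of the 7 genes fell into 1 to 9 loci of any size, of which 1 to 3 had at least 6 peaks, so loci and genes are unlike units and the shares of loci are a rough scale only. No list had a peak on the opposite strand of any of the 7 spans. All 7 symbols lay on the same chromosome in RefSeq's GRCm38.p6 table as in the spans. Only Csf1r (a lncRNA and a miRNA), Adgre1 (pseudogenes) and Mrc1 (a miRNA) overlapped other genes in that table.

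Csf1r and Itgb2 had more peaks in both CKO lists than in either WT list, by a margin of at least 3. Together these 2 genes carried 4 and 3 peaks in WT and 12 and 12 in CKO. The other 5 genes together carried 24 and 22 peaks in WT and 18 and 27 in CKO, so their genotype ranges overlapped. Over all 7 genes the lists held 28 and 25 peaks in WT (26.5 ± 2.12, SD, n = 2) and 30 and 39 in CKO (34.5 ± 6.36, SD, n = 2). This difference of 8.0 came to 6.5 without WT 2, 3.5 without CKO 2, 12.5 without CKO 1 and 0 in the top 50% of each list by score, where the counts were 21, 23, 19 and 25 in the order of the lists. By single gene, the CKO lists lay above both WT lists in 3 of 7 genes (Csf1r, Itgb2 and Cd14) and below them in 1 (Mrc1), and the same 4 genes separated without WT 2. Among the loci of the whole series, 10.8% had more peaks in both CKO lists and 10.0% had more in both WT lists. A margin of 3 or more towards CKO was seen in 2 of the 7 genes and in 1.02% of loci. These are unlike units, because the peaks of Csf1r fell into 3 loci and those of Itgb2 into 2. Counted within single loci, the span peaks of these genes reached a margin of 3 in none. Among loci with at least 10 peaks, a setting chosen after seeing the data, the share of loci with that margin was 1.97%. Towards WT, no gene of the 7 had a margin of 3, and the share of loci with one is not given here. The exact two-sided permutation p was 0.33 for each of the 4 separated genes (adjusted p = 0.583 over 7 genes), the smallest value that this design allows.

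**Figure D1:**
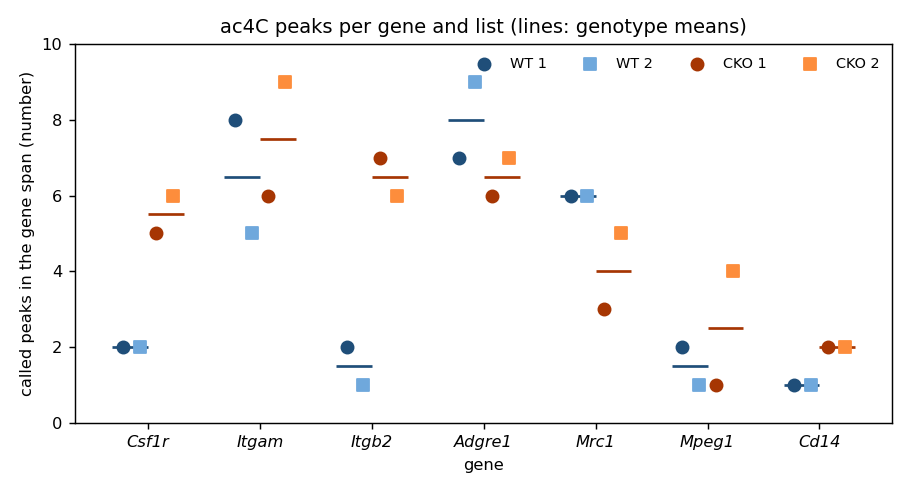
Number of called ac4C peaks in each gene span (vertical axis) for the 7 genes, with 1 point per peak list and lines at the genotype means of 2 lists. Csf1r and Itgb2 show the CKO points at 5 to 7 and the WT points at 1 to 2, whereas the points of Itgam, Adgre1 and Mpeg1 overlap or touch between genotypes.

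Csf1r, the receptor that the M-CSF signal acts through, held 2 and 2 peaks in WT and 5 and 6 in CKO. Both CKO lists lay above both WT lists. The peaks covered 114 and 92 bases in WT and 555 and 500 bases in CKO, a difference of 424 bases against an SD of 15.6 in WT and 38.9 in CKO (n = 2 each; exact two-sided permutation p = 0.33, adjusted p = 1.0). The gene's strongest region, chr18:61242688-61242880, lay 4.7 kb from the 5′ edge of the span, stood at percentile 99.8 of CKO 1 and 97.3 of CKO 2, and had no peak in either WT list. Its peaks were 193 and 156 bases wide and began at the same base. The strongest WT peaks of the gene stood at percentiles 88.4 and 67.4. CKO 1 had another peak nearby, at chr18:61243323-61243555 (percentile 91.5), that no other list held.

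Further along Csf1r, the genotypes shared 3 of the 9 regions. The region chr18:61252024-61252105 carried a peak in WT 2, CKO 1 and CKO 2 at percentiles 62.3, 26.4 and 34.9, all starting at the same base, and was 5 bases wide in WT 2 and CKO 1. The last region of the gene, chr18:61263176-61263284, carried a peak in WT 1, CKO 1 and CKO 2 at percentiles 88.4, 75.9 and 47.7, all ending at the same base. These shared peaks ranked higher in the WT list than in either CKO list. In the top 50% of each list the counts of Csf1r were 2, 2, 3 and 3, so the genotypes stayed apart by 1 peak, and 1 of its 15 peaks was 200 bases or wider.

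Itgb2, the beta chain of Mac-1, showed the widest gap of the 7 genes, with 2 and 1 peaks in WT and 7 and 6 in CKO. Covered bases were 161 and 114 in WT and 458 and 420 in CKO. The ranges did not overlap (exact two-sided permutation p = 0.33, adjusted p = 1.0 for covered bases). Covered bases separated the genotypes in 2 of the 7 genes, Csf1r and Itgb2. The share of loci that separate by covered bases was not computed. Without WT 2 the comparison was 2 peaks against 7 and 6. In the top 50% of each list it was 1 and 1 against 4 and 5. No Itgb2 peak in any list was 200 bases or wider, so the gap came entirely from narrower peaks. All 8 regions of the gene had a peak in at least 1 CKO list and 3 had one in a WT list.

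Both CKO lists, and neither WT list, held 3 Itgb2 regions. The first, chr10:77381847-77381949, stood at percentile 61.5 of CKO 1 and 96.7 of CKO 2. The second, chr10:77386807-77386852, stood at 84.4 and 67.5, and the last, chr10:77393786-77393812, at 74.9 and 75.8. In each of them the peaks of both lists began at the same base. The strongest region of the gene was shared: chr10:77384380-77384537 reached percentile 98.8 in WT 1, 99.9 in CKO 1 and 98.9 in CKO 2, with peaks 156, 158 and 158 bases wide, and had no peak in WT 2. The single peak of WT 2 lay in chr10:77395313-77395426 at percentile 85.2, where CKO 1 and CKO 2 stood at 18.7 and 69.4. Thus WT 1 and WT 2 had no Itgb2 region in common.

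Itgam, the alpha chain that pairs with Itgb2, did not separate the genotypes. It held 8 and 5 peaks in WT and 6 and 9 in CKO (exact two-sided permutation p = 0.667, adjusted p = 0.778), and without WT 2 or without CKO 2 the mean difference of 1.0 turned to -0.5. Its 18 regions were spread from 2.8 to 55.5 kb along the span, with 7 marked in both genotypes. The strongest region, chr7:127716490-127716691, lay near the 3′ end and was held by the second list of each genotype, at percentile 99.9 of WT 2 and 99.8 of CKO 2. WT 1 and CKO 1 had no peak there. Just before it, chr7:127715409-127715487 carried a peak in WT 1, CKO 1 and CKO 2 at percentiles 90.3, 90.5 and 59.4.

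One Itgam region, chr7:127680777-127680847, was held by both WT lists and by neither CKO list. It stood at percentile 99.3 of WT 1 and 87.5 of WT 2, and both peaks began at the same base. Near the 5′ end, chr7:127663803-127663882 carried a peak in WT 1, CKO 1 and CKO 2 at percentiles 28.0, 7.7 and 45.8. Both chains of Mac-1 therefore had regions marked in 3 lists.

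**Figure D2:**
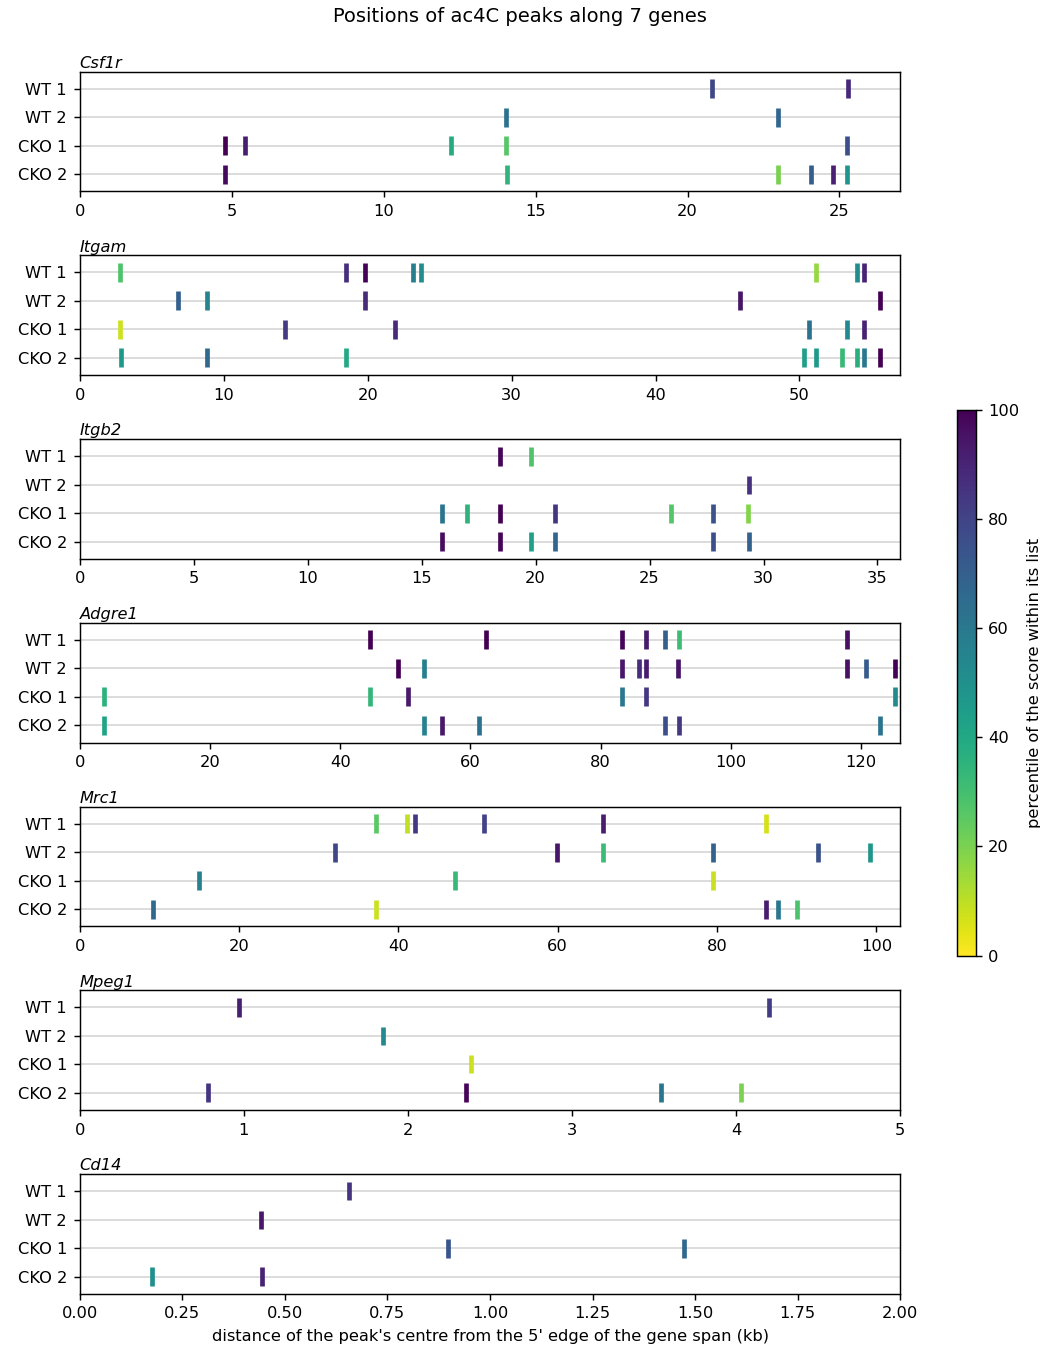
Each mark is the centre of 1 called peak, placed by its distance in kb from the 5′ edge of the gene span (horizontal axis, a separate scale for each gene) in each of the 4 lists (rows), and coloured by the percentile of its score within its list. Marks do not show peak width. The marks at 4.7 kb in Csf1r and at 15.8, 20.8 and 27.8 kb in Itgb2 stand in the CKO rows only, and that at 117.8 kb in Adgre1 in the WT rows only.

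Adgre1, the F4/80 receptor, had similar numbers of peaks in the genotypes but higher ranks in WT. The lists held 7 and 9 peaks in WT and 6 and 7 in CKO, which touched at 7 (exact two-sided permutation p = 0.667, adjusted p = 0.778). Peak names number the calls of a list along the genome, and many numbers within Adgre1 were not listed. Those listed were 7 of 23 in WT 1, 9 of 16 in WT 2, 6 of 24 in CKO 1 and 7 of 20 in CKO 2. The best Adgre1 peak stood at percentile 99.9 of WT 1 and 99.7 of WT 2, and at 93.1 of CKO 1 and 93.4 of CKO 2. The median Adgre1 peak stood at 95.8 and 94.0 in WT and at 56.0 and 62.2 in CKO. Neither measure overlapped between genotypes. The best peak separated with WT above in 2 of 7 genes (Adgre1 and Mrc1), against 17.9% of loci, and with CKO above in 2 of 7 (Csf1r and Itgb2), against 15.9% of loci. The median peak separated with WT above in 2 of 7 genes (Adgre1 and Cd14), against 19.3% of loci. Without WT 2 these genes separated in the same directions on each measure, and the median separated Csf1r and Mpeg1 too, with WT 1 above. The best Itgb2 peaks of WT 1 (98.8) and CKO 2 (98.9) were nearly level, as were the best Mrc1 peaks of WT 1 (92.0) and CKO 2 (91.8). In the shares of loci above, a list without a peak counted as the lowest rank. All 7 genes had a peak in every list but only 70.9% of the loci did, so these shares mix absence with rank.

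Single Adgre1 regions showed the same order of ranks in most cases. The region chr17:57782829-57782855 was held by both WT lists alone, as the same 27 bases, at percentiles 95.8 and 95.6. The region chr17:57748255-57748286 stood at 98.7, 94.0 and 60.2 in WT 1, WT 2 and CKO 1, and chr17:57752009-57752043 stood at 92.7, 92.2 and 84.1 in the same lists. CKO 2 had no peak in either. At chr17:57709501-57709617 the percentile was 99.8 in WT 1 and 33.7 in CKO 1. At the 3′ end, chr17:57790115-57790268 was called as the same 154 bases in WT 2 and CKO 1, at percentiles 99.6 and 51.8. At chr17:57717718-57717858 the ranks were close, at 57.3 in WT 2 and 56.0 in CKO 2. The exceptions were chr17:57756866-57757096, at 31.1 in WT 1, 94.9 in WT 2 and 84.3 in CKO 2, and chr17:57754830-57754983, at 69.9 in WT 1 and 76.1 in CKO 2. Both CKO lists alone held chr17:57668672-57668734, the most 5′ region of the gene, at the low percentiles 35.9 and 41.5. The 2 strongest Adgre1 peaks of all, at chr17:57727347-57727447 (percentile 99.9) and chr17:57709501-57709617, both came from WT 1.

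Mrc1, the mannose receptor, was the gene with fewer peaks in both CKO lists, with 6 and 6 in WT and 3 and 5 in CKO. Covered bases did overlap, at 601 and 545 in WT and 270 and 784 in CKO (exact two-sided permutation p = 1.0, adjusted p = 1.0). Its peaks of 200 bases or more both lay in CKO 2, and among those the difference in peak number turned from -2.0 to 1.0. The genotypes also overlapped in peak number in the top 50% of each list, with 3 and 4 peaks in WT and 1 and 3 in CKO, and when lists were cut to equal numbers of peaks, with 4 and 6 in WT and 2 and 5 in CKO. Of its 16 regions, 12 were seen in 1 list only and none in 3 or more, the highest share in 1 list only among the 7 genes. One region, chr2:14299611-14299743, was held by both WT lists alone, at percentiles 92.0 and 31.8. The Mrc1 region with the highest mean percentile, chr2:14293798-14293900, was held by WT 2 alone, at 94.5.

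Cd14, the lipopolysaccharide co-receptor and the shortest of the 7 spans, held 1 and 1 peaks in WT and 2 and 2 in CKO. No region was held by 1 genotype alone in both of its lists. The region chr18:36858964-36859450 carried a peak in WT 1 and CKO 1 at percentiles 84.4 and 73.7, and chr18:36859542-36859569 one in WT 2 and CKO 2 at 94.1 and 90.6. These regions were 91 bases apart, and merged across gaps of up to 100 bases they formed the 1 stretch of the 7 genes that was marked in all 4 lists, chr18:36858964-36859569. The additional CKO peaks, at chr18:36858407-36858653 in CKO 1 (percentile 66.7) and chr18:36859800-36859851 in CKO 2 (percentile 50.7), lay on opposite sides of that stretch. Covered bases were 215 and 26 in WT and 523 and 80 in CKO and overlapped (exact two-sided permutation p = 0.667, adjusted p = 1.0). Without CKO 1 the difference in covered bases turned from 181 to -40.5.

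Mpeg1, the perforin-2 gene, held 2 and 1 peaks in WT and 1 and 4 in CKO, with no separation (exact two-sided permutation p = 1.0, adjusted p = 1.0). Without CKO 2 the difference of 1.0 turned to -0.5. The gene's strongest region by mean percentile, chr19:12438586-12439105, was held by WT 1 and CKO 2 at 91.4 and 84.5. Both CKO lists alone held chr19:12440210-12440499, at percentile 98.7 of CKO 2 but only 8.0 of CKO 1, so this was among the weakest peaks of one list and among the strongest of the other. The third region in 2 lists, chr19:12441934-12442417, stood at 82.3 in WT 1 and 19.6 in CKO 2.

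**Figure D3:**
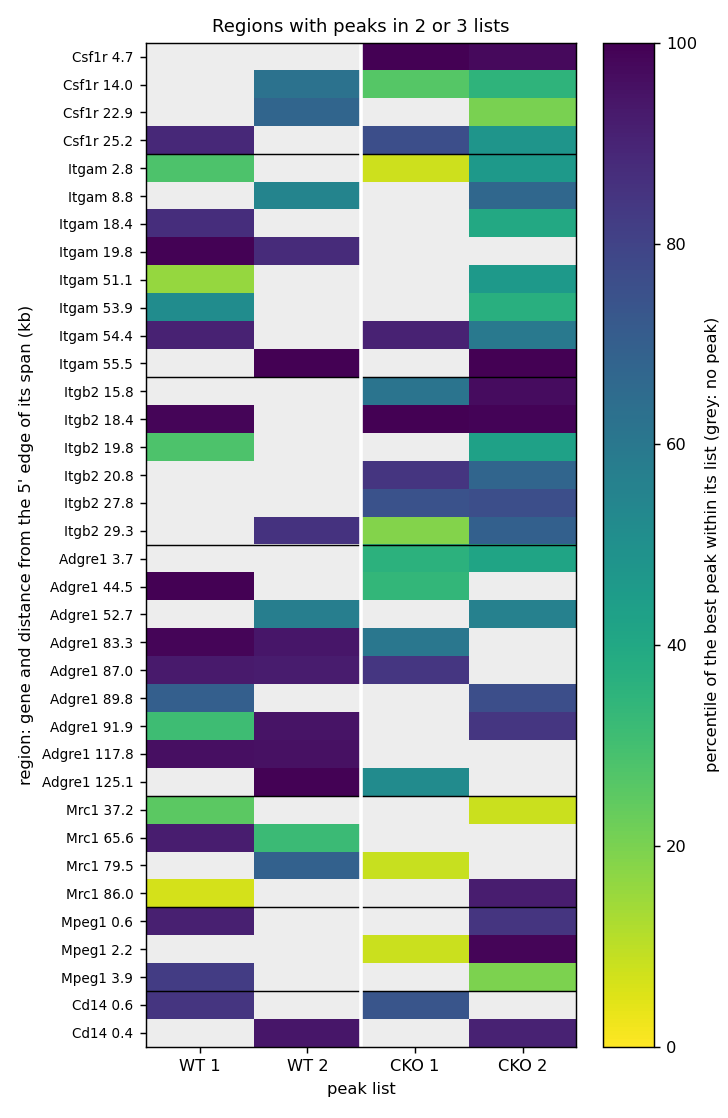
Rows are the 36 regions of the 7 genes that carried a peak in 2 or 3 lists, named by gene and distance in kb from the 5′ edge of its span, and columns are the 4 lists. Colour gives the percentile of the best peak within its list and grey means no peak. No row is coloured in all 4 columns, and 6 rows are coloured in both CKO columns alone against 3 in both WT columns alone.

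Taking the 77 regions of the 7 genes together, 41 (53.2%) came from a single list, 27 were shared by 2 lists and 9 (11.7%) by 3 lists. None was shared by all 4 (0 of 77). Over the whole series 69.1% of regions came from a single list, 6.24% were shared by 3 lists and 0.964% by all 4. Both CKO lists alone held 6 regions (7.79%; 3.64% over the series) and both WT lists alone held 3 (3.9%; 4.26% over the series). Of the 6 regions held by CKO alone, 3 were in Itgb2 and 1 each in Csf1r, Adgre1 and Mpeg1. The 3 held by WT alone were in Itgam, Adgre1 and Mrc1. The 9 regions in 3 lists comprised 6 that both CKO lists shared with 1 WT list, in Csf1r, Itgam and Itgb2 (2 each), and 3 that both WT lists shared with 1 CKO list, all in Adgre1. The share of each of these 2 kinds over the series was not computed. Without WT 2, 10 regions were in WT 1 alone and 8 in both CKO lists alone. These 2 counts follow unlike rules, because WT then needs a peak in 1 list and CKO still in both. Without WT 2, 4 regions were in all of the other 3 lists, and without CKO 1, 1 region was. No share over the series was computed with a list left out.

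Both CKO lists shared 12 regions and both WT lists shared 6, and Csf1r and Itgb2 made up the difference. In those genes both CKO lists shared 3 and 5 regions and both WT lists 0 and 0. In the other 5 genes together both CKO lists shared 4 regions and both WT lists 6, of which Adgre1 had 1 and 4. Of the WT 1 and WT 2 peaks, 6 of 28 (21.4%) and 6 of 25 (24.0%) overlapped a peak of the other WT list, close to the 22.5% and 25.2% of all peaks in those lists. Of the CKO 1 and CKO 2 peaks, 12 of 30 (40.0%) and 12 of 39 (30.8%) overlapped a peak of the other CKO list, against 20.4% and 23.5% of all peaks. Peaks found in no other list made up 25.0% and 40.0% of these genes' peaks in WT 1 and WT 2 and 40.0% and 30.8% in CKO 1 and CKO 2. The shares over all peaks were 50.7%, 46.8%, 51.6% and 48.5% in the same order. These differences from the series were not tested.

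Pooled over the 7 genes, the median peak ranked above the middle of every list, and higher in WT than in CKO. By single gene, the medians separated only in Adgre1 and Cd14 (2 of 7, against 19.3% of loci) and overlapped between genotypes in the other 5. That share of loci counts a list without a peak as the lowest rank. The gene medians below 50 were Mpeg1 (8.0) and Mrc1 (32.5) in CKO 1 and Itgam (45.8) in CKO 2. The pooled median percentile was 83.0 in WT 1, 85.2 in WT 2, 60.9 in CKO 1 and 62.0 in CKO 2, where all peaks of a list have a median of 50 by construction. No p is given for this pooled median, because the genes were chosen with results of these data known. Adgre1 contributed 29 of the 122 peaks, the largest number of any of the 7 genes, followed by Itgam with 28. Without Adgre1 the pooled medians were 80.2, 72.4, 62.1 and 60.8 in the same order, so the WT lists stayed above the CKO lists. Leaving out any other single gene gave 81.9 to 85.6 in WT 1, 82.1 to 87.5 in WT 2, 58.6 to 62.6 in CKO 1 and 60.6 to 66.9 in CKO 2. Csf1r thus had more peaks and a higher best peak in CKO and Itgb2 had more peaks there with a best peak level with that of WT 1, while the median over all 7 genes was higher in WT.

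**Figure D4:**
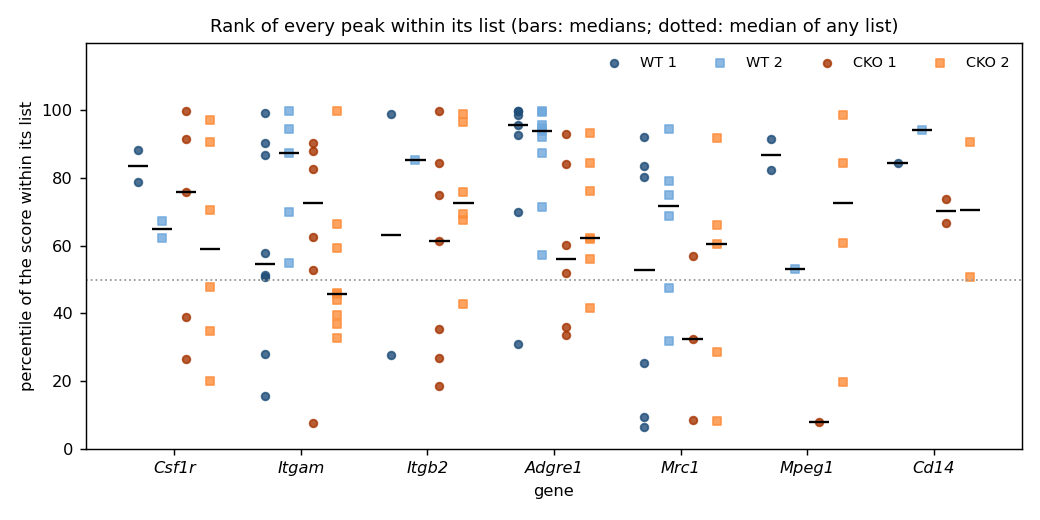
Each point is 1 called peak, at the percentile of its score within its list (vertical axis), by gene and list, with bars at the median of each gene and list. The Adgre1 medians lie at 95.8 and 94.0 in the WT lists and at 56.0 and 62.2 in the CKO lists, and the best Csf1r peaks are higher in both CKO lists (99.8 and 97.3) than in the WT lists (88.4 and 67.4).

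The widths of the peaks differed between the genes. Mpeg1 peaks had a median width of 284 bases (200 to 439 bases, 8 peaks) and Cd14 peaks 133.5 bases (26 to 276 bases, 6 peaks), whereas the medians of Adgre1, Itgam, Itgb2, Csf1r and Mrc1 were 53, 61, 62.5, 86 and 101.5 bases. The median over all peaks of the series was 114 bases. Mpeg1 and Cd14 are compact genes with few exons, and they held 11 of the 18 peaks of 200 bases or more. The other 5 genes are split into many exons and held all 14 of the peaks under 20 bases. Per kb of span, introns included, the number of peaks over the 4 lists was 3.0 for Cd14 and 1.6 for Mpeg1, against 0.194 (Mrc1) to 0.556 (Csf1r) for the others.

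Overlapping peaks of different lists often had an edge at exactly the same base. Of the 36 regions of the 7 genes with peaks in 2 or more lists, all peaks shared their start in 27, their end in 7, and either in 30 (83.3%). Over the whole series this share was 69.5% of 23274 regions. At chr10:77385780-77385784 in Itgb2, WT 1 and CKO 2 both held a peak of the same 5 bases, at percentiles 27.8 and 42.7. Whether such a short peak carries the score of a wider peak that was trimmed to the mRNA is not stated in the sources used here, and its part in the ranks above was not tested.

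**Figure D5:**
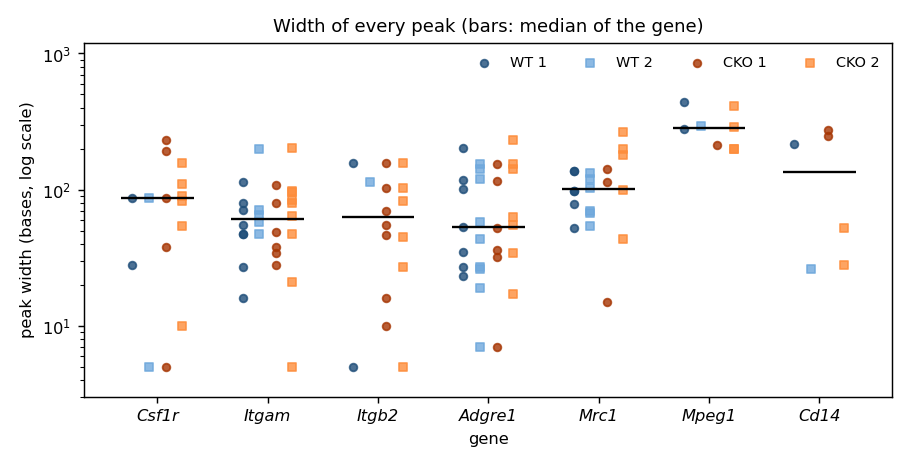
Width in bases of every called peak (vertical axis, log scale), by gene and list, with a bar at the median of each gene. All 8 Mpeg1 peaks are 200 bases or wider, while peaks down to 5 bases occur in Csf1r, Itgam and Itgb2.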

How the data were processed

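Peak lists came from 4 IP and 4 input samples. Per the submitters' processing notes, MACS2 2.2.7.1, STAR 2.7.8a and fastp 0.20.1 were used with the mm39 (GRCm39) build. Per the labels, each list holds the MACS2 calls for IP over input, and peak names show 1 library per list. The authors deposited 6 columns without a header, of which the score was used here only as a rank within its list. What quantity the score represents is not given in the sources used, nor is the way strands were assigned or peaks limited to mRNA. List and genotype were matched through the library code in file, peak names and sample titles. Starts were read as counting from 0 and are printed counting from 1.

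The members and lists were chosen with earlier results of these data known. Named regions were those in all 4 lists, those in both lists of 1 genotype alone, and the top region of each gene by mean percentile; other regions in 2 or 3 lists, and single peaks, were chosen after their values were seen. Other macrophage genes, osteoclast genes and markers of other cell types were not analysed here, nor were peak sequences, for want of an mm39 annotation and genome. Merging and overlap rules were tested on simulated lists with known answers. Each gene had an exact permutation test with Benjamini-Hochberg adjustment over 7 genes. Python 3.11.15, numpy 2.4.6, pandas 2.3.3 and matplotlib 3.10.9 were used.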

Additional observations from a re-analysis of the deposited data

How the results depend on the processing

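Over the 10 alternatives run for each gene, the difference in peak number (CKO minus WT) kept its direction in all 10 for Csf1r (0.5 to 4.0) and Cd14 (0.5 to 1.0), and in 9 for Itgb2 (0 to 5.5) and Adgre1 (-2.5 to 0), where it was 0 among peaks of 200 bases or more. Some of the 10 could not change it. Counting either strand added nothing, as no peak lay on the opposite strand, and pairing lists by replicate number leaves a mean difference unchanged. Spans widened by 1 kb also gave the same counts. The difference in peak number reversed for Mrc1 with peaks of 200 bases or more (1.0), for Itgam in the top 50% (-1.5) and when 1 list was left out (-0.5 to 2.5), and for Mpeg1 when 1 list was left out (-0.5 to 2.5). Covered bases reversed for Adgre1 (14.5 with peaks of 200 bases or more, and -180 to 118 when 1 list was left out), Mrc1 (35.5 with equal numbers of peaks, 232 with peaks of 200 bases or more, -303 to 211 when 1 list was left out), Itgam (-107 in the top 50%, -112 to 248 when 1 list was left out), Mpeg1 (-55.5 in the top 50%, -291 to 594) and Cd14 (-40.5 to 402). Among peaks of 200 bases or more, no gene separated the genotypes by peak number (0 of 7, against 4) or covered bases (0 against 2), the regions of WT alone came to 0 and those of CKO alone to 1, the total difference was 3.0 and 11.1% of peaks had a partner within the genotype, against 29.5%; fewer peaks enter there. The total difference was 0 in the top 50%. Leaving out 1 list gave 2 to 7 genes separated by covered bases, 4 to 13 regions in WT alone, 8 to 18 in CKO alone and 1 to 4 in all remaining lists, since 1 list then stands for its genotype. Merging across 100 bases put 1 region in all 4 lists. Shared replicate numbers do not show a pairing here, with 2 numbers and no label that ties them. The replicate block (paired by number) gave 18.5 regions for WT alone and 26.5 for CKO alone, again with 1 list per genotype, 5 genes separated by peak number and 3 by covered bases, and left the differences in peak number and covered bases as they were. Unknown depth limits all of these. No share of loci was computed for covered bases or with a list left out.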

Other observations

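The number in a peak's name counts the calls of its list along the genome, and many numbers are missing from the lists. Over the whole genome 45.3%, 62.8%, 46.8% and 52.8% of the numbers up to the highest were listed in WT 1, WT 2, CKO 1 and CKO 2. Within the 7 genes, 122 of the 190 numbers from the first to the last peak of each gene and list were listed. The ends of each such range are listed by construction, and a list with 1 peak in a gene can miss none. These counts are therefore not comparable with the shares over the whole genome. Within Adgre1, 29 peaks were listed while the numbers from the first to the last peak of each list came to 83, so 54 calls between them are not in the lists used here. In the same order of lists the Adgre1 peaks were 7 of 23, 9 of 16, 6 of 24 and 7 of 20. Over the other genes the missing numbers were 6 in Itgam, 5 in Mrc1, 2 in Csf1r, 1 in Itgb2, and 0 in Mpeg1 and Cd14. No peak of the lists lay on the opposite strand of these spans, so what these calls were is not given by the files.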
